A study of Drosophila melanogaster with 1908 samples.

Results

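The cells described here were chosen by transmitter genes alone: cells of whole Drosophila melanogaster embryos with an inferred age of at least 14 h, at least 2 unique molecular identifiers (UMIs) over Gad1 plus VGAT, and no UMI of ChAT, VAChT or VGlut. The rule found 785 cells among 118270 cells of that age and 547805 cells in all, and they are called Gad1/VGAT cells below. Profiles came from sci-RNA-seq3, which tags the RNA of single nuclei by combinatorial indexing, and embryos had been collected in 11 overlapping windows from 0 to 20 h. Each experiment pooled nuclei of several windows, inferred age is the hour that the authors' neural network assigned to a nucleus, and no treatment, mutation or transgene is given in the labels. Gad1/VGAT cells were set against cholinergic or glutamatergic cells of the same age, which have at least 2 UMIs over ChAT, VAChT and VGlut and may also carry Gad1 or VGAT UMIs, and against all other cells of the same age, which belong to neither class.

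Experiment was the unit of replication, since the labels name no animals or cultures, so p-values measure the spread between experiments. Experiments 1, 3 and 10 held 17.7%, 5.73% and 76.3% of the Gad1/VGAT cells, and experiment 2 added 2 that entered no test. Gad1/VGAT cells made up 0.320% of cells of 14 h or more in experiment 1 (exact 95% binomial interval 0.269% to 0.377%), 0.439% in experiment 3 (0.320% to 0.587%) and 0.930% in experiment 10 (0.857% to 1.01%). These intervals cover counting error only. Their summed depth was 83095, 22814 and 664217 UMIs in experiments 1, 3 and 10, so experiment 3 gave the least precise values.

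GABA is the main inhibitory transmitter of the insect central nervous system. Neurons make it from glutamate with glutamate decarboxylase, the product of Gad1, and load it into synaptic vesicles with the vesicular GABA transporter, the product of VGAT. Acetylcholine, made by choline acetyltransferase (ChAT) and loaded by VAChT, is the main excitatory transmitter of the fly brain and of its sensory neurons. Glutamate, loaded by VGlut, is the transmitter of fly motor neurons.

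In the Ensembl BDGP6 annotation, whose assembly corresponds to dm6, Gad1 lies on the minus strand of chromosome arm 3L from 4074077 to 4088744, and VGAT on the minus strand of 2R from 14198478 to 14201249. Of the 785 cells, 540 (68.8%) had exactly 2 UMIs over both genes, 21.9% had 3, and 73 had more, with at most 9. Just outside the threshold stood 1108 cells with 1 UMI and no UMI of the other class genes. Of 924 cells with 2 or more UMIs of Gad1 plus VGAT, 15.04% also had a UMI of ChAT, VAChT or VGlut, and the rule left them out. Only 25 cells (3.18%) had UMIs of both Gad1 and VGAT, while 54.4% had Gad1 alone and 42.4% had VGAT alone. Both genes were seen together in 7, 4 and 14 Gad1/VGAT cells of experiments 1, 3 and 10, which is 5.04%, 8.89% and 2.34% of them. ChAT and VAChT, which share their first bases in the annotation, were seen together in 29.3% of 1038 cells that had at least 2 UMIs of this pair and none of the other 3 genes. These values chose the cells and are given as a description.

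Summed over cells, Gad1 stood at 1649, 3068 and 1320.3 counts per 1000000 UMIs (CPM) in the Gad1/VGAT cells of experiments 1, 3 and 10, against 5.44, 14.6 and 22.9 CPM in cholinergic or glutamatergic cells. VGAT stood at 2359, 1972 and 894 CPM in Gad1/VGAT cells, against 59.8, 7.30 and 40.8 CPM in cholinergic or glutamatergic cells. Both follow from the rule.

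The label of GABAergic neurons was checked against 10 genes of all neurons (elav, fne, nSyb, Syt1, brp, cac, para, Appl, CadN and futsch). In experiments 1 and 3 the summed level of this list was 12696 and 25949 CPM in Gad1/VGAT cells, against 16695 and 23980 CPM in cholinergic or glutamatergic cells and 5073 and 6642 CPM in all other cells. In experiment 10 it was 5780 CPM in Gad1/VGAT cells, against 7019 CPM in cholinergic or glutamatergic cells and 5069.9 CPM in all other cells. All 10 neuron genes had UMIs in the Gad1/VGAT cells of each experiment. So the neuron genes were at 2.5 and 3.91 times the level of other cells in experiments 1 and 3, but at 1.14 times in experiment 10, where the data go against the label for the class as a whole.

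Muscle genes ran the other way in experiments 1 and 3. The summed level of 8 muscle genes (Mhc, Mlc1, Mlc2, up, wupA, sls, Tm2 and Act57B) was 7317 and 5654 CPM in the Gad1/VGAT cells of experiments 1 and 3, against 10831 and 14644 CPM in all other cells. In experiment 10 it was 15019 CPM in Gad1/VGAT cells, against 15069 CPM in all other cells. The 7 glial genes summed to 673.9, 745 and 743.7 CPM in Gad1/VGAT cells of experiments 1, 3 and 10. In all other cells they summed to 716.1, 485.6 and 756 CPM, so Gad1/VGAT cells were higher in experiment 3 and slightly lower in experiments 1 and 10. Of the glial genes Eaat1 was at 0 in Gad1/VGAT cells of experiment 1, and repo, Gs2 and Eaat1 were at 0 in those of experiment 3. The glial sums there are only 56 and 17 UMIs, so a single gene at 0 says little.

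Single cells were compared at a fixed depth as well. After each cell of at least 400 UMIs was thinned to 400 UMIs, 61.02% of 59 Gad1/VGAT cells of experiment 1 held 3 or more neuron marker UMIs (95% interval 47.4% to 73.5%), against 77.7% of cholinergic or glutamatergic cells and 25.0% of 13489 other cells. In experiment 3 the share was 86.4% of 22 Gad1/VGAT cells (65.1% to 97.1%), against 83.8% of cholinergic or glutamatergic cells and 30.1% of 3705 other cells. In experiment 10 it was 33.5% of Gad1/VGAT cells (28.8% to 38.5%), against 46.7% of cholinergic or glutamatergic cells and 30.3% of 29836 other cells. The interval of experiment 10 holds the share of its other cells, and those of experiments 1 and 3 do not.

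**Figure D1:**
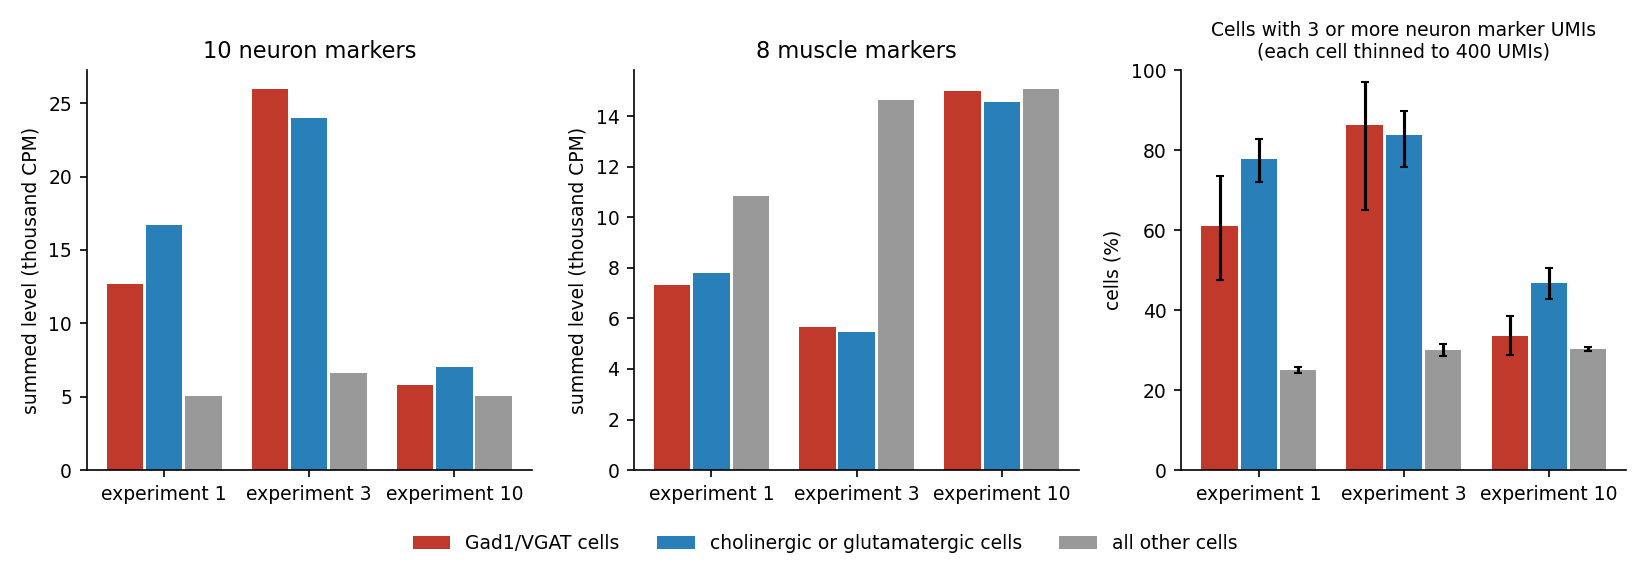
Summed levels of 10 neuron markers and of 8 muscle markers (bars, CPM / 1000) and the share of cells with 3 or more neuron marker UMIs after thinning to 400 UMIs (bars with exact 95% binomial intervals), for Gad1/VGAT cells, cholinergic or glutamatergic cells and all other cells of experiments 1, 3 and 10. Neuron markers reached 12696 and 25949 CPM in Gad1/VGAT cells of experiments 1 and 3, and 5780 CPM in those of experiment 10, near the 5069.9 CPM of its other cells.

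Experiment 10 also differed in its windows and its depth. Most of its Gad1/VGAT cells (93.99%) came from the 16 to 20 h collection, with a neuron list level of 5598 CPM, against 5162 CPM in other cells of that window. The 20 cells from its 14 to 18 h collection had 4484 CPM, against 3575 CPM in other cells, and the 13 cells from its 12 to 16 h collection had 26655 CPM, against 6431 CPM in other cells. Gad1/VGAT cells of the 16 to 20 h collection in experiments 1 and 3 had 11935 and 22487 CPM, against 5858 and 7128 CPM in other cells. Its median depth was 550 UMIs per Gad1/VGAT cell, against 1457 UMIs per cholinergic or glutamatergic cell, and 19.9% of its Gad1/VGAT cells held 1500 UMIs or more, against 5.04% and 2.22% of those of experiments 1 and 3. In the cells of experiment 10 under 1500 UMIs the neuron list stood at 5441 CPM in Gad1/VGAT cells and 4904 CPM in other cells. Cholinergic or glutamatergic cells of that depth had 9951 CPM. At 1500 UMIs or more the levels were 5999.9 CPM in Gad1/VGAT cells, 5527 CPM in other cells and 6525 CPM in cholinergic or glutamatergic cells. Ribosomal genes took a median of 8.39% of UMIs in the Gad1/VGAT cells of experiment 10, with 1.97% and 0.407% in those of experiments 1 and 3. The part of depth, window or RNA quality in this difference was not tested, and results are given below with and without experiment 10.

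The share of cells that met the UMI rule was higher in later bins from 8 h on. Before that it did not climb steadily, with 0.0414% at 4 to 6 h (35 cells) and 0.0269% at 6 to 8 h over all experiments, and in experiment 10 it was 0.0706% at 4 to 6 h and 0.0188% at 8 to 10 h. Over all experiments it was 0.0299% at 8 to 10 h (exact 95% interval 0.0189% to 0.0448%), 0.129% at 10 to 12 h, 0.295% at 12 to 14 h, 0.366% at 14 to 16 h (0.312% to 0.425%), 0.686% at 16 to 18 h and 1.44% at 18 to 20 h (1.26% to 1.64%). Of the 15746 cells in the last bin, 15242 came from experiment 10. Within experiment 1 the share was 0.304% at 14 to 16 h and 0.342% at 16 to 18 h, with intervals that overlap, and within experiment 3 it was 0.345% and 0.714%. Within experiment 10 it was 0.589% at 14 to 16 h, 0.799% at 16 to 18 h and 1.47% at 18 to 20 h. Shares depend on depth, and when every cell was thinned to 250 UMIs before classes were chosen the shares of 14 h or more were 0.182%, 0.205% and 0.352% in experiments 1, 3 and 10.

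**Figure D2:**
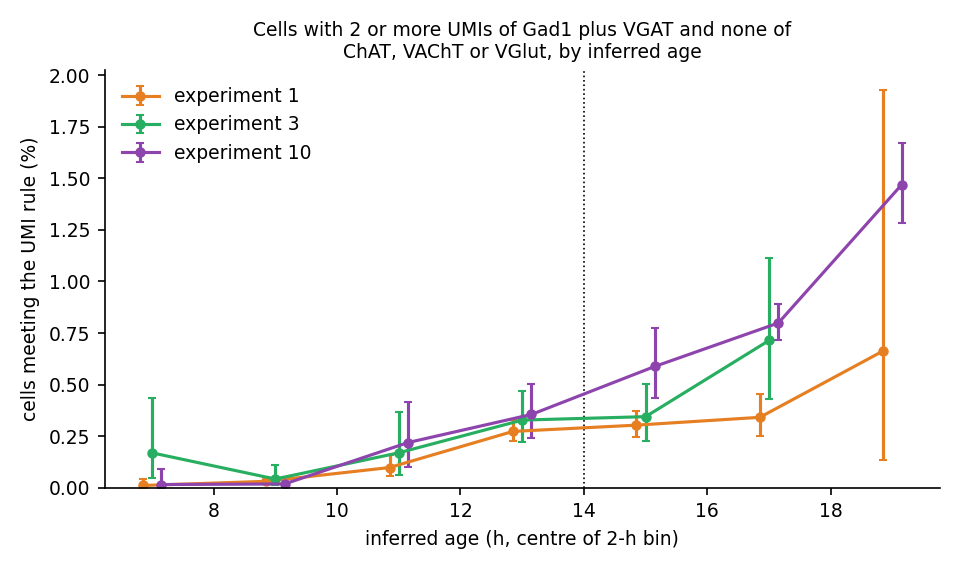
Share of cells (%) that met the UMI rule in 2-h bins of inferred age, for experiments 1, 3 and 10, with exact 95% binomial intervals; bins of at least 100 cells are drawn and the dotted line marks the 14 h limit. In experiment 10 the share reached 1.47% at 18 to 20 h, and in experiment 1 it was 0.304% at 14 to 16 h and 0.342% at 16 to 18 h.

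The first comparison asked which genes distinguish Gad1/VGAT cells from cholinergic or glutamatergic cells of the same age. One recognition gene was higher in Gad1/VGAT cells, the sidestep family member side-III, and channels (para, SK, pHCl-1), calmodulin and transcription factors (kn, tup, acj6) were among those lower. UMIs were summed per experiment and class and tested with edgeR's quasi-likelihood test with experiment as a block, over 3769 genes, leaving out the 5 genes of the rule. At a false discovery rate of 0.05, 2 genes were higher (0.0531% of those tested) and 16 were lower (0.425%), and 4.54% had an unadjusted p under 0.05. The direction was the same in all 3 experiments for 14 of the 18, and not for CG14989, CG7715, alphaTub85E and para. No gene passed when experiment 1 or experiment 3 was left out, when DESeq2 replaced edgeR, or without the block, so the calls rest on both of these experiments and on the model. Without experiment 10, 6 genes were higher (0.276% of 2173) and 31 lower (1.43%), and 17 of the 18 remained, all but Msp300.

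The gene side-III encodes an immunoglobulin superfamily protein of the sidestep family, whose members bind beaten path proteins on other neurons. It had 987, 1227 and 87.3 CPM in Gad1/VGAT cells of experiments 1, 3 and 10, against 217.4, 576.3 and 74.3 CPM in cholinergic or glutamatergic cells. The groups overlapped across experiments, but within each experiment the Gad1/VGAT cells were higher, by 4.54, 2.13 and 1.17 times. The fitted log2 difference was 1.06 ± 0.25 (SE, 3 experiments), with an adjusted p of 0.00586 by edgeR. Here and below the SE is approximate, the size of the log2 difference divided by the square root of the test's F. It comes from the fitted model and is not the spread of the ratios of the 3 experiments. It was 1.64 without experiment 10 and 1.08 without experiment 3, but 0.31 without experiment 1, 0.34 at an age of 16 h or more and 0.60 with at least 3 UMIs for a class, and of these 5 fits only the one without experiment 10 called it. Its UMIs came from 25, 8 and 26 Gad1/VGAT cells. Cells with Gad1 alone had 1116, 2043 and 104.7 CPM and cells with VGAT alone 978, 341.1 and 47.4 CPM in experiments 1, 3 and 10. Among the 20 tested beat and side genes it was the one called, and 15 of the 20 lay below 0, with a median log2 difference of -0.15 beside -0.04 over all genes tested.

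CG14989 was the other higher gene, and it was chosen for mention after its values were seen. It overlaps the 5′ end of Gad1 on the opposite strand by 1164 bases (3L, 4087581 to 4092706). The sources used here do not state whether counting used strand, so reads of both genes cannot be told apart and CG14989 is given as a description tied to the rule. It had 1589 and 2016 CPM in Gad1/VGAT cells of experiments 1 and 3, against 304.4 and 189.7 CPM in cholinergic or glutamatergic cells. In experiment 10 it had 471.2 CPM in Gad1/VGAT cells, against 536.1 CPM in cholinergic or glutamatergic cells, so the direction turned there. Cells with VGAT alone, which had no Gad1 UMI, held 1369.6 and 1478 CPM of it in experiments 1 and 3, in 32 of 85 and 8 of 16 cells. Cells with Gad1 alone held 1849 and 2128 CPM, in 23 of 47 and 12 of 25 cells.

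Ion channels held 3 of the calls. Of 23 tested channel genes 3 were lower and none higher, 20 lay below 0, and the median log2 difference was -0.31. Over all 3769 genes tested, 0.425% were called lower, 2100 lay below 0, and the median was -0.04. The neuron list, which shares genes with the channels, had all 10 genes below 0 and a median of -0.37. Whether channels were lower beyond that shift was not tested. The pH-sensitive chloride channel pHCl-1 had 60.2, 306.8 and 43.7 CPM in Gad1/VGAT cells of experiments 1, 3 and 10, against 483.8, 817 and 90.6 CPM in cholinergic or glutamatergic cells. It was lower in each experiment, with a log2 difference of -1.72 ± 0.31 (SE, 3 experiments; edgeR adjusted p = 6.02e-05) and -2.27 without experiment 10. SK, a potassium channel gated by calcium, had 722, 657.5 and 257.4 CPM in Gad1/VGAT cells, against 1408, 1598 and 362.2 CPM in cholinergic or glutamatergic cells. Every pair of sums had the same order, and the log2 difference was -0.92 ± 0.21 (edgeR adjusted p = 0.00539). The voltage-gated sodium channel para had 915, 4208 and 264.97 CPM in Gad1/VGAT cells, against 2712, 3932 and 409.2 CPM in cholinergic or glutamatergic cells. It was lower in experiments 1 and 10 and not in experiment 3, although the fit gave -0.80 ± 0.19 (edgeR adjusted p = 0.00536).

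Calmodulin and a gene whose product binds it were lower. Calmodulin (Cam), the calcium sensor of many kinases and channels, had 661.9, 525.99 and 843 CPM in Gad1/VGAT cells of experiments 1, 3 and 10, against 1899.7, 1699.8 and 1049 CPM in cholinergic or glutamatergic cells. The ratio was 0.348 and 0.309 in experiments 1 and 3 and 0.804 in experiment 10 (log2 difference -1.09 ± 0.21, SE over 3 experiments; edgeR adjusted p = 0.000109). The calmodulin-binding gene igl (igloo) had 48.1, 87.7 and 22.6 CPM in Gad1/VGAT cells, against 296.2, 372.1 and 50.3 CPM in cholinergic or glutamatergic cells. In Gad1/VGAT cells these are 4, 2 and 15 UMIs, so its log2 difference of -1.82 ± 0.42 (edgeR adjusted p = 0.00574) is imprecise. The Munc13 relative unc-13-4A had 132.4, 87.7 and 51.2 CPM in Gad1/VGAT cells, against 432.1, 496.1 and 102.9 CPM in cholinergic or glutamatergic cells (log2 difference -1.51 ± 0.33).

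Transcription factors and RNA-binding proteins formed a further group. Of 54 tested factors with roles in interneurons 3 were lower and none higher, with 36 below 0 and a median log2 difference of -0.13. Over all genes tested, 0.425% were called lower and the median was -0.04. Without experiment 10 the same 3 factors were lower and dac was higher. There 23 of 44 tested factors lay above 0 and 21 below, with a median of 0.046. The EBF factor kn (collier), which acts in fly dendritic arborization sensory neurons and in peptide neurons, had 132.4, 131.5 and 138.5 CPM in Gad1/VGAT cells of experiments 1, 3 and 10, against 423.97, 802 and 216.9 CPM in cholinergic or glutamatergic cells. Its sums did not overlap, and the log2 difference was -1.29 ± 0.28 (SE, 3 experiments; edgeR adjusted p = 0.00195). The Islet factor tup, known from motor neurons, had 96.3, 175.3 and 186.7 CPM in Gad1/VGAT cells, against 510.9, 372.1 and 252.7 CPM in cholinergic or glutamatergic cells, a log2 difference of -1.12 ± 0.29 with sums that did not overlap. The POU factor acj6, known from olfactory sensory neurons, had 1, 0 and 23 UMIs in Gad1/VGAT cells, against 84, 31 and 100 UMIs in cholinergic or glutamatergic cells (log2 difference -1.73 ± 0.46). The bHLH-PAS factor ss (spineless), which acts in antennae and in dendrites of sensory neurons, had 1, 0 and 14 UMIs (12.03, 0 and 21.1 CPM) in Gad1/VGAT cells, against 173.9, 226.2 and 57.02 CPM in cholinergic or glutamatergic cells (-2.21 ± 0.52). The RNA-binding gene cpo (couch potato), active in the peripheral nervous system, had 2094, 2104 and 1372 CPM in Gad1/VGAT cells, against 4335, 4713 and 1751 CPM in cholinergic or glutamatergic cells (-0.92 ± 0.18).

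Several of these factors are known from sensory neurons, and the summed level of sensory neuron markers was lower in Gad1/VGAT cells of experiments 1 and 3. The summed level of 8 such genes (nompC, ppk, ppk26, RluA-1, iav, nan, dar1 and ham) was 216.6 and 262.996 CPM in Gad1/VGAT cells of experiments 1 and 3, against 726 and 1058 CPM in cholinergic or glutamatergic cells. In experiment 10 it was 298.1 CPM in Gad1/VGAT cells, against 318.1 CPM in cholinergic or glutamatergic cells. The channel genes ppk and nan were at 0 in Gad1/VGAT cells of all 3 experiments, and ppk26 in those of experiments 1 and 3. In cholinergic or glutamatergic cells nan was at 0 too in experiments 1 and 3, as was iav in all 3 experiments. Of the 8 genes 3 passed the filter, all below 0 and none called. Without experiment 10, 4 passed the filter, all below 0, and ppk was called lower. Its 69 UMIs there came from 16 cholinergic or glutamatergic cells. The part of these markers in the calls above was not tested.

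Further lower genes were Ank2, Msp300 and CG31221. Ank2, an ankyrin of neuronal membranes, had 469.3, 1227 and 659.4 CPM in Gad1/VGAT cells of experiments 1, 3 and 10, against 1103, 2589.9 and 692 CPM in cholinergic or glutamatergic cells (log2 difference -0.79 ± 0.20). Msp300, a nesprin that anchors nuclei, had ratios of 0.671, 0.638 and 0.706 (-0.67 ± 0.18). CG31221 had 84.2, 175.3 and 78.3 CPM in Gad1/VGAT cells, against 557.1, 686 and 106.8 CPM in cholinergic or glutamatergic cells (-1.42 ± 0.30). Without experiment 10 the log2 differences were -2.02 for kn, -2.01 for tup, -4.54 for acj6, -4.25 for ss, -2.49 for CG31221 and -1.21 for Ank2.

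A few calls rested on single cells, and these genes were named after their values were seen. The tubulin gene alphaTub85E had 120.3, 0 and 218.3 CPM in Gad1/VGAT cells of experiments 1, 3 and 10, against 1769, 124.02 and 174.97 CPM in cholinergic or glutamatergic cells, where 1 cell held 53.8% of the UMIs in experiment 1, and its log2 difference of -1.31 became -0.36 without that experiment. CG7715 lies inside ChAT on the opposite strand (3R, 18727573 to 18728468), so like CG14989 it cannot be told apart from a gene of the rule. It had no UMI in Gad1/VGAT cells of experiments 1 and 3, against 1735 UMIs in 4 cholinergic or glutamatergic cells of experiment 1, of which 1 cell held 1329, and 3 such cells of experiment 3. Of the 31 genes lower without experiment 10, 9 had over 50% of their UMIs in 1 cell and 11 had no UMI in Gad1/VGAT cells.

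**Figure D3:**
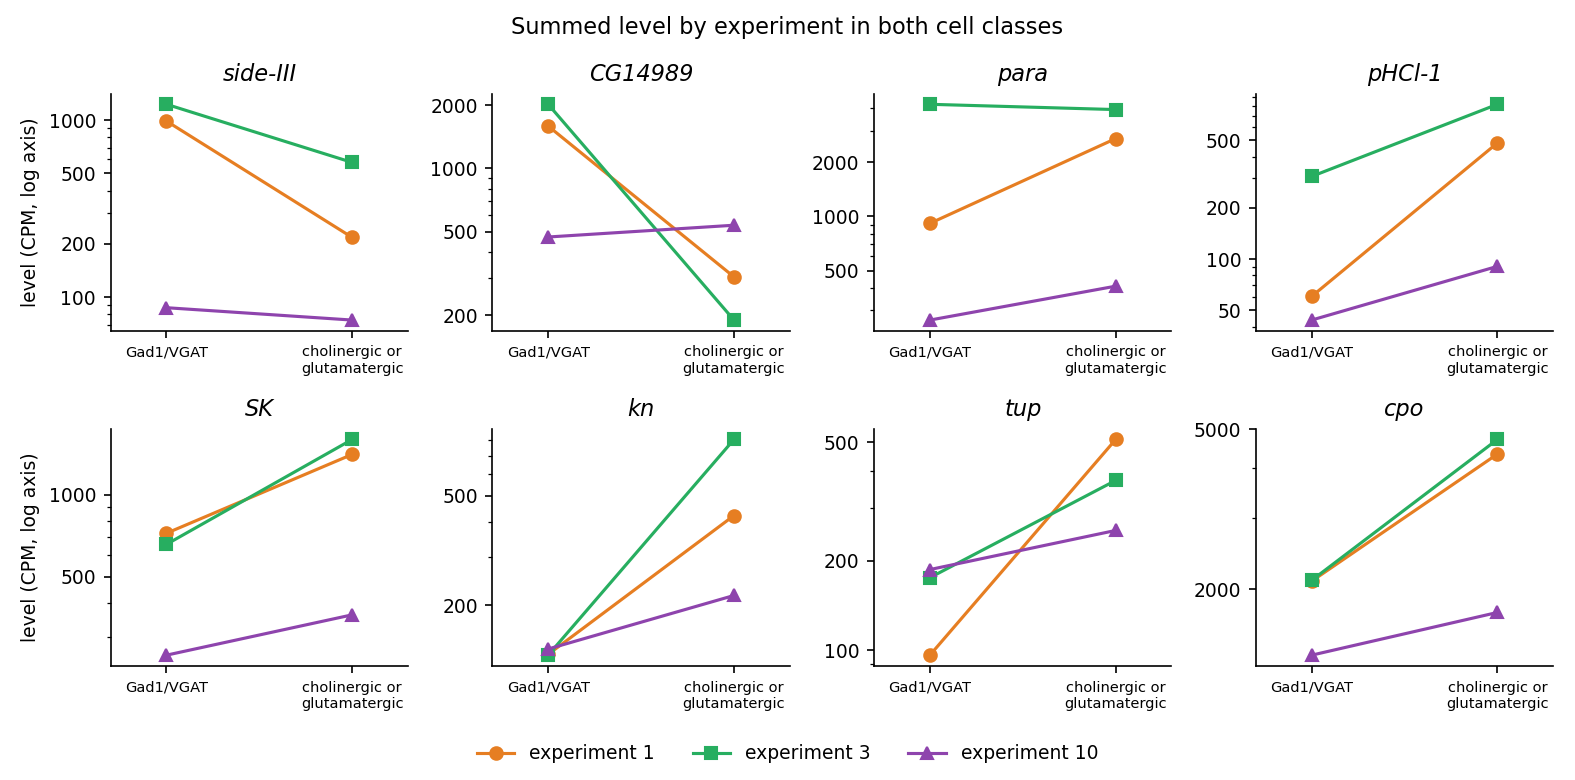
Summed level (CPM, log axis) of 8 genes in Gad1/VGAT cells (left) and in cholinergic or glutamatergic cells (right), 1 line per experiment. side-III sloped down from left to right in each experiment, pHCl-1, SK, kn, tup and cpo sloped up in each, CG14989 turned in experiment 10 and para turned in experiment 3.

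The genes of GABA handling and reception were measured beside the rule. Of the other metabolism genes only Gabat, the GABA transaminase, passed the filter, with 36.1, 0 and 219.8 CPM in Gad1/VGAT cells of experiments 1, 3 and 10, against 95.1, 131.3 and 234.8 CPM in cholinergic or glutamatergic cells. Its log2 difference was -0.56 ± 0.38 and was not called. The membrane transporter Gat had 2, 0 and 24 UMIs and Ssadh, the next enzyme of breakdown, 0, 0 and 24 UMIs in Gad1/VGAT cells, too few for a statement. Rdl, the main GABA-gated chloride channel subunit, had 1384, 3813 and 284.5 CPM in Gad1/VGAT cells, against 1786, 2502 and 301.3 CPM in cholinergic or glutamatergic cells. Its direction differed between experiments and its log2 difference was -0.07 ± 0.19, with an approximate 95% interval of -0.44 to 0.29 built from that SE of the model. The metabotropic subunit GABA-B-R1 had 96.3, 219.2 and 31.6 CPM in Gad1/VGAT cells, against 255.5, 306.4 and 54.2 CPM in cholinergic or glutamatergic cells, lower in each experiment (log2 difference -1.01 ± 0.39), but it was not called. GABA-B-R2 had 0.50 ± 0.54 and was not called. The subunits Lcch3, Grd and GABA-B-R3 had at most 6 UMIs in the Gad1/VGAT cells of an experiment and did not pass the filter.

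Other lists showed few calls. None of 11 acetylcholine receptor genes, 6 glutamate receptor genes, 10 monoamine receptor genes, 22 genes of vesicle release, 47 axon guidance genes, 21 dpr and DIP genes or 7 Hox genes was called in this comparison. Over all 3769 genes tested, 0.0531% were called higher and 0.425% lower, so no call in lists of this size says little about them. Of 12 pan-neuronal genes 11 lay below 0, with a median log2 difference of -0.33. Over all genes tested 2100 lay below 0, with a median of -0.04. All 10 genes of the neuron list lay below 0, with a median of -0.37, and para was the only one called. Neuropeptide genes were too sparse, with 1 of 39 tested. Without experiment 10, dac (dachshund), a nuclear factor of mushroom body neurons and other tissues, with 385.1 and 1359 CPM in Gad1/VGAT cells of experiments 1 and 3 against 165.8 and 269.9 CPM in cholinergic or glutamatergic cells, was called higher, as were Dscam2, the octopamine receptor gene Octalpha2R and heph. These 4 were named after their values were seen, and over 3 experiments dac had a log2 difference of 0.99 ± 0.29 that was not called.

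Both transmitter classes were also taken alone, with the same Gad1/VGAT sums, so these comparisons share samples. Against cholinergic cells no gene passed in edgeR, 0% of 3204 tested, with 5.18% at an unadjusted p under 0.05 and 1 call by DESeq2. The log2 differences were 1.03 for side-III, -1.98 for pHCl-1 (edgeR adjusted p = 0.0562), -1.26 for Cam and -1.48 for kn. Against glutamatergic cells (64, 23 and 77 cells in experiments 1, 3 and 10) no gene passed in edgeR, 0% of 1412 tested, with 40 at an unadjusted p under 0.05 and 0 calls by DESeq2. There the log2 differences were 1.41 for side-III, -0.96 for pHCl-1, 0.11 for Cam, -0.18 for cpo and -1.20 for tup. Whether a gene differed more from one class than from the other was not tested.

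The second comparison asked what distinguishes Gad1/VGAT cells from the rest of the late embryo. Receptors for GABA, acetylcholine and dopamine and several surface proteins of neurons were higher, and the lipoprotein gene of the fat body was lower. These differences are not shown to be particular to Gad1/VGAT cells. For comparison, cholinergic or glutamatergic cells of experiments 1, 3 and 10 had 1786, 2502 and 301.3 CPM of Rdl, 1234, 2240 and 328.7 CPM of nAChRalpha6, 407.7, 678.5 and 107.3 CPM of Dop2R and 3291, 4012 and 5858 CPM of apolpp, and none of these 4 was called in the first comparison. Of 8382 genes, 10 were higher (0.119%) and 2 lower (0.0239%) in edgeR, all 12 with the same direction in the 3 experiments, and 5.31% had an unadjusted p under 0.05. Without experiment 10, 72 were higher (0.885% of 8132) and 35 lower (0.43%), and all 12 were among them. Without experiment 1 only 1 gene passed, and without experiment 3 the count was 20, so most of the calls depended on experiment 1. The median log2 difference of all genes tested was -0.21, and -0.07 when library sizes were used without TMM factors, so differences are read against that shift.

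Receptors were 4 of the 10 higher genes. Rdl had 1384, 3813 and 284.5 CPM in Gad1/VGAT cells of experiments 1, 3 and 10, against 319.01, 319.5 and 203.1 CPM in all other cells. Gad1/VGAT cells had 4.34, 11.9 and 1.4 times the level of other cells, with a log2 difference of 1.72 ± 0.42 (SE, 3 experiments; edgeR adjusted p = 0.029) and 2.52 without experiment 10. All 5 GABA receptor genes tested lay above 0, with a median log2 difference of 1.12, and Rdl was the one called. Over all 8382 genes tested, 0.119% were called higher, 2788 lay above 0 and the median was -0.21. The nicotinic acetylcholine receptor subunit nAChRalpha6 had 1986, 3550.4 and 331.2 CPM in Gad1/VGAT cells, against 372.3, 405.1 and 238.4 CPM in all other cells (log2 difference 1.67 ± 0.41). The subunit nAChRalpha7 had 312.9, 1096 and 64.7 CPM in Gad1/VGAT cells, against 64.8, 73.6 and 38.2 CPM in all other cells (1.94 ± 0.47). Of 12 tested acetylcholine receptor genes these 2 were called and 11 lay above 0, with a median log2 difference of 1.23. The D2-like dopamine receptor Dop2R had 529.5, 1534 and 143.03 CPM in Gad1/VGAT cells, against 117.3, 170.03 and 69.4 CPM in all other cells (1.77 ± 0.44). It was the one called of 15 monoamine receptor genes, of which 12 lay above 0. For these 4 receptors the ratios to all other cells were 4.34 to 14.9 in experiments 1 and 3, and 1.39 to 2.06 in experiment 10.

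Surface and signalling genes followed the same pattern. Dscam2, an adhesion protein in the spacing and wiring of neurites, had 300.9, 1490.3 and 49.7 CPM in Gad1/VGAT cells of experiments 1, 3 and 10, against 45.97, 64.4 and 29.8 CPM in all other cells (log2 difference 2.32 ± 0.48, SE over 3 experiments; edgeR adjusted p = 0.00563). The beaten path gene beat-Ib had 9, 8 and 25 UMIs in Gad1/VGAT cells and ratios of 6.85, 15.6 and 3.44 to all other cells (2.40 ± 0.55). In experiment 10 its 25 UMIs came from 7 cells, and 1 cell held 36% of them. For side-III the ratios to all other cells were 13.8, 8.26 and 1.67 (2.19 ± 0.46). Cngl, a cyclic nucleotide-gated channel homologue, had 1155, 2718 and 191.2 CPM in Gad1/VGAT cells, against 197.8, 262.4 and 132.2 CPM in all other cells (1.82 ± 0.43). CG10384 had 14, 17 and 23 UMIs in Gad1/VGAT cells and ratios of 6.77, 27.3 and 1.31 (2.23 ± 0.53), and CG14989 had ratios of 6.61, 13.4 and 1.18.

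Of the 2 lower genes 1 is known from fat body. The lipoprotein precursor apolpp, made by fat body, had 3755, 2323 and 4777 CPM in Gad1/VGAT cells of experiments 1, 3 and 10, against 20237, 43427 and 5406 CPM in all other cells (log2 difference -2.56 ± 0.42, SE over 3 experiments; edgeR adjusted p = 1.32e-05). The ratio was 0.186 and 0.0535 in experiments 1 and 3 and 0.884 in experiment 10, and the log2 difference was -1.33 without experiment 3. CG7465 had 1, 0 and 21 UMIs in Gad1/VGAT cells and 350.3, 166.3 and 70.5 CPM in all other cells. All 8 muscle genes lay below 0 with a median log2 difference of -0.90, and none was called. Over all 8382 genes tested, 5594 lay below 0 and the median was -0.21.

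**Figure D4:**
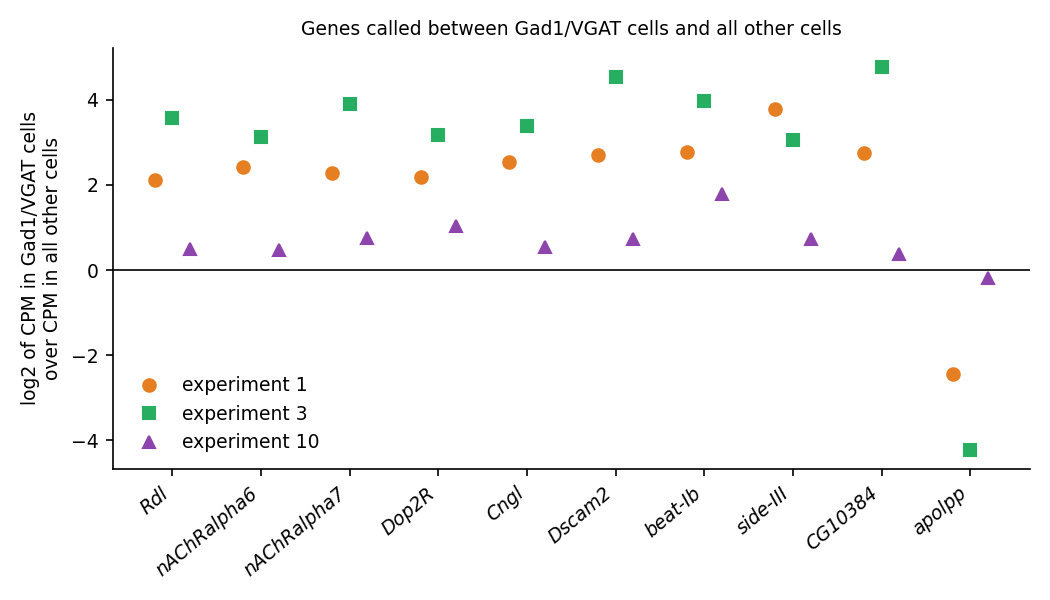
Log2 of the ratio of CPM in Gad1/VGAT cells to CPM in all other cells, for 10 of the genes called in that comparison, 1 point per experiment. Ratios of experiments 1 and 3 lie far from 0 and those of experiment 10 nearer to it, with apolpp below 0 in all 3.

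Without experiment 10 the neuronal lists held more calls, although their members overlap and the neuron list had already served as the check of the label. Over all 8132 genes tested in this fit, 0.885% were called higher and 0.43% lower. Of 25 vesicle release genes 7 were higher (brp, nSyb, Syt1, Snap25, cac, Rim and Syt7) and none lower, with a median log2 difference of 1.35 beside -0.33 over all genes tested. Of 30 channel genes 7 were higher, with a median of 1.10, and of 12 acetylcholine receptor genes 5, with a median of 1.87. Of 15 monoamine receptor genes 4 were higher (5-HT1A, Dop2R, Octbeta2R and Octalpha2R). Among recognition genes, dpr9 and DIP-beta of 30 dpr and DIP genes and 4 of 22 beat and side genes were higher. Of 97 tested factors with roles in interneurons 1 was higher, dac, and 1 lower, ftz-f1, with a median of -0.20. These counts are near the shares over all genes tested and are not read as a result about the list. With experiment 10 in the fit, none of the vesicle release or channel genes was called. Hemocyte genes Col4a1, vkg and srp were the lower ones of 4 tested. Genes named from this fit alone were chosen after their values were seen.

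Shares of cells with a UMI were compared at a fixed depth. At 400 UMIs per cell, Rdl was seen in 30.5% of Gad1/VGAT cells of experiment 1, 40.9% of experiment 3 and 7.79% of experiment 10, against 27.9%, 37.6% and 11.2% of cholinergic or glutamatergic cells and 6.26%, 5.60% and 5.60% of all other cells that were not muscle marker cells. In experiment 10 the exact 95% interval of the Gad1/VGAT share, 5.32% to 10.9%, holds the share of those other cells. Muscle marker cells had at least 3 muscle UMIs and no neuron marker UMI, and were taken as cells that should lack Rdl. Their share was 1.36%, 1.10% and 2.24%. In experiment 10 they were little set apart as muscle, with Mhc in 64.4% of them and in 59.8% of the remaining other cells. In experiments 1 and 3 Mhc was seen in 68.8% and 82.2% of them, against 26.8% and 26.3% of the remaining other cells. Their shares in experiment 10 are thus not a clean background. The gene side-III was seen in 18.6%, 22.7% and 2.08% of Gad1/VGAT cells, against 7.97%, 17.1% and 2.42% of cholinergic or glutamatergic cells and 0.518%, 0.274% and 0.819% of muscle marker cells. Other cells that were not muscle marker cells had side-III in 1.87%, 3.29% and 1.59% in experiments 1, 3 and 10. The interval of the Gad1/VGAT share of side-III was 0.901% to 4.05% in experiment 10. It holds the values of the cholinergic or glutamatergic cells and of those other cells. For kn the share was 1.69% of 59 and 0 of 22 Gad1/VGAT cells in experiments 1 and 3, with an exact 95% upper limit of 15.4% in experiment 3, against 11.2% and 17.1% of cholinergic or glutamatergic cells and 2.01% and 2.19% of muscle marker cells. In experiment 10 it was 2.86% of Gad1/VGAT cells, against 5.45% of cholinergic or glutamatergic cells and 3.39% of muscle marker cells. The exact 95% intervals of the kn shares of Gad1/VGAT cells hold the shares of muscle marker cells at this depth. Muscle marker cells are not shown to lack kn, so their shares are not a background for it. Other cells that were not muscle marker cells had kn in 3.88%, 4.22% and 5.13% in experiments 1, 3 and 10. Without thinning, the shares in Gad1/VGAT cells of experiments 1, 3 and 10 were 29.5%, 44.4% and 12.5% for Rdl, 17.99%, 17.8% and 4.34% for side-III and 4.32%, 2.22% and 8.01% for kn.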

How the data were processed

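The deposited matrix holds UMI counts per gene and cell that the authors made without normalization, mapped to dm6 (BDGP6) with STAR 2.7.3a per the submitters' processing notes. Beside it the authors deposited, for each cell, the percent of UMIs from ribosomal genes, counts of UMIs and genes, and an inferred age. According to the methods, doublet nuclei of the RNA data had been detected with an adapted DoubletFinder and removed by the authors, so no caller was run again. The sources used here do not state how strand entered the counting. Wells were mapped to experiments by their titles. All 547805 cell names were unique, and 62673 of 118646 barcode strings occurred in more than 1 experiment, so the well and the barcode together name a cell. Experiments 1, 3 and 10 held 139, 45 and 599 Gad1/VGAT cells (median depth 353, 371 and 550 UMIs), 487, 185 and 785 cholinergic or glutamatergic cells (405, 467 and 1457 UMIs) and 42877, 10019 and 63035 other cells (333, 347 and 387 UMIs). Muscle marker cells had median depths of 334, 350 and 345 UMIs. Cholinergic cells, with at least 2 UMIs of ChAT plus VAChT and none of VGlut, numbered 398, 154 and 534, and glutamatergic cells, with at least 2 UMIs of VGlut and none of ChAT or VAChT, 64, 23 and 77.

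UMIs were summed per experiment and class with at least 20 cells in both classes and tested with edgeR 4.0.16 in R 4.3.3 (filterByExpr, TMM, quasi-likelihood F test, Benjamini-Hochberg over all genes tested). Both classes of an experiment come from the same pools of nuclei, so experiment was the block and pairs the sums. The fit was tested on simulated data with known changes. DESeq2 1.42.0 was the other tool. Python 3.11.15, NumPy 2.4.6, SciPy 1.17.1, pandas 2.3.3 and matplotlib 3.10.9 did the rest. Standard errors after ± were derived from the fitted log2 difference and the F of its test, and are not the spread of ratios between experiments. CPM are UMIs per 1000000 UMIs of the summed cells. Alternatives were no block, no TMM, no filter on low counts, cells of at least 400 UMIs, at least 3 UMIs for a class, classes chosen after thinning to 250 UMIs, an age of 16 h or more, compared cells without Gad1 or VGAT UMIs, leaving out each experiment, and, chosen after seeing the data, cells with at least 3 neuron marker UMIs.

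The members and the gene lists were chosen with earlier results of these data known. Genes named were the 15 with the largest change each way against cholinergic or glutamatergic cells and the 10 each way against all other cells, if called, with at least 20 UMIs in the higher class and the same direction in every experiment. Up to 6 members of each list with the smallest p, all genes of GABA metabolism and reception, and the genes of the rule were added. Annotation was Ensembl BDGP6.54, and no promoter or protein sequence was used here.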

Additional observations from a re-analysis of the deposited data

Results flagged for a closer look

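Cells younger than the 14 h limit also met the UMI rule and are outside the comparisons above. Of 159658 cells with an inferred age of 8 to 14 h, 0.142% had at least 2 UMIs of Gad1 plus VGAT and none of ChAT, VAChT or VGlut. Of 269877 cells under 8 h, 49 did (0.0182%). They were flagged because no comparison uses them, and their markers were not analysed here.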

How the results depend on the processing

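The share of tested genes that were called depended on the processing in all 4 comparisons, and the cause was not tested. Against cholinergic or glutamatergic cells it was 0.478% (18 genes). It was 0% without the replicate block, by DESeq2, with classes chosen after thinning to 250 UMIs and at 16 h or more (experiments 1 and 10 only), 0.030% with at least 3 UMIs for a class (experiments 1 and 10 only), 0.0835% with at least 3 neuron marker UMIs per cell (chosen after seeing the data) and 0.259% without the filter on low counts, where 34 genes of a longer list were called. Leaving out an experiment gave 0% to 1.70%. Against all other cells it was 0.143% (12 genes). It was 0.0835% without the replicate block (7 genes, 2 higher), 0.274% by DESeq2 (23 genes, all higher), 1.19% without TMM factors (87 of 100 higher), 1.25% without the filter (36 higher and the rest lower), 0.0528% in cells of at least 400 UMIs, and 0% with at least 3 UMIs for a class, with at least 3 neuron marker UMIs or at 16 h or more. Leaving out an experiment gave 0.0120% to 1.32%. Against cholinergic cells, where 0% were called, it was 0.0312% by DESeq2, 0.375% without TMM factors, 0.292% without the filter, 0.51% in cells of at least 400 UMIs, 0.495% with at least 3 neuron marker UMIs, 0.0625% with at least 3 UMIs for a class, 0.0201% at 16 h or more and 0.419% against cells without Gad1 or VGAT UMIs. Leaving out an experiment gave 0% to 1.70%. Against glutamatergic cells, where 0% were called, it was 0.0711% against cells without Gad1 or VGAT UMIs and 0.0182% without the filter, and leaving out an experiment gave 0% to 0.0889%. There, the alternatives with at least 3 UMIs, with thinning to 250 UMIs and at 16 h or more had too few cells and could not be fitted. The block changed no call in the comparisons with cholinergic or with glutamatergic cells. For single genes, 3 directions turned: CG7715 to 0.35 at 16 h or more, Msp300 to 0.055 with classes chosen after thinning, and CG10384 to -0.11 with at least 3 UMIs for a class. With at least 3 UMIs for a class the shares of Gad1/VGAT cells were 0.0759%, 0.156% and 0.303% in experiments 1, 3 and 10. Depth limits every value of experiment 3, whose Gad1/VGAT cells sum to 22814 UMIs.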
